A study of Homo sapiens with 21 samples.

Results

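DAF is a form of the EWS/FLI fusion in which the tyrosines of the N-terminal repeats of the EWS domain are replaced by alanine, and it was compared here with the unaltered full-length fusion, WT-EF, in A673 cells. A673 is an established Ewing sarcoma cell line. The comparison used the 6 libraries labelled DAF or WT-EF, 3 of each, out of 21 libraries in the series. All 6 came from cells that first received iEF, an shRNA that depletes the endogenous fusion, on day 1, and then a retroviral cDNA on day 5, either wildtype EWS/FLI or DAF. Puromycin at 2 ug/mL and hygromycin at 400 ug/mL selected for both vectors until day 16. A separate stretch of the EWS domain called SYGQ2 keeps its tyrosines in DAF. Each group was a drug-selected population of 1 cell line, so the results are those of A673 cells.

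A further 12 libraries, 3 in each group, served as comparisons made in other libraries. The iLuc cells received a control shRNA against luciferase with an empty vector and kept their own fusion (endo-EF), and the iEF cells received the fusion shRNA with an empty vector. The mut9 cells were rescued with a fusion that has a shortened EWS domain, and the DAF-mut9 cells with the shortened domain carrying the tyrosine substitutions. The table names its DAF-mut9 columns mut9 with a d added, and reading them as DAF-mut9 rests on that name. No library of these groups enters the difference between DAF and WT-EF, although all 21 libraries, including 3 of the del22 group that are not described here, shared the estimate of the spread. The labels only number the replicates, and the study describes them as repeated knockdown and rescue experiments, so the p-values here measure the spread between such experiments in 1 cell line.

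EWS/FLI joins the N-terminal part of EWS, a low-complexity and disordered domain rich in repeated tyrosine-containing peptides, to the DNA-binding domain of the ETS factor FLI1. The FLI1 part binds ETS sites, and the EWS part lets the fusion also bind long runs of the sequence GGAA, called GGAA microsatellites. The EWS part also recruits transcriptional machinery and chromatin regulators. The fusion turns many genes on in Ewing sarcoma cells and turns many others off, among them genes of a mesenchymal programme. The comparison asks which of these effects need the repeat tyrosines.

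GGAA microsatellites near 8 genes are shown because they are the sequence element at which the fusion is best known to act, and because genes beside them differed in their values with DAF. They were read from the GRCh37 reference, the same build as hg19, on the strand that reads GGAA, and every GGAA unit is in capitals. The reference need not match the allele in A673 cells, and repeat number varies between genomes. The first 4 lie near genes that were lower with DAF than with WT-EF, and the last 4 lie near genes for which no difference was called in the main test. The 8 were picked after their values were seen, so the sets are examples only. For SLC43A1, WT-EF itself was close to iEF, as given below.
LIPI, chr21:15585593-15585676, minus strand: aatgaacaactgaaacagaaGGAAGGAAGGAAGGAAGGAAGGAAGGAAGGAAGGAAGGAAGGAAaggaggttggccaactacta
CCK, chr3:42307999-42308082, minus strand: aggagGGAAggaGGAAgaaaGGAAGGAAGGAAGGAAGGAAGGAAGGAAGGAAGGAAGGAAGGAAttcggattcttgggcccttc
CER1, chr9:14719542-14719661, minus strand: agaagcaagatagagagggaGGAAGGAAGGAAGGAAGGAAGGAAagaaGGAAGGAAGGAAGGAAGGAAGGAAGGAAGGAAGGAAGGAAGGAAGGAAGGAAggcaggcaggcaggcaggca
SPHKAP, chr2:229054595-229054698, minus strand: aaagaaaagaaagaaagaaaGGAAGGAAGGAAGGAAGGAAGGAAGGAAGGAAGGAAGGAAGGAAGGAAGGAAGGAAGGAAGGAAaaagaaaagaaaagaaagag
NR0B1, chrX:30328855-30328996, minus strand: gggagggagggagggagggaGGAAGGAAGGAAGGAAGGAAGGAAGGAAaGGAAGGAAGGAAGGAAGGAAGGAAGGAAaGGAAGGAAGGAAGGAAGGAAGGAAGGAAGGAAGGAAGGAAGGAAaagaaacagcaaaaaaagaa
CAV1, chr7:116163239-116163310, plus strand: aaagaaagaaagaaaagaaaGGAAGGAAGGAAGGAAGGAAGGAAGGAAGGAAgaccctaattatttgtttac
FCGRT, chr19:50014744-50014831, plus strand: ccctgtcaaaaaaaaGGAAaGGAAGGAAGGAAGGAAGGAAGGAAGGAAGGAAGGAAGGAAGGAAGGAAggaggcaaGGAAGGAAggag
SLC43A1, chr11:57277050-57277141, plus strand: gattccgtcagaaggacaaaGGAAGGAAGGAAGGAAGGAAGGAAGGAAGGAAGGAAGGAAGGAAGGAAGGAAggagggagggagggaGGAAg
The longest run lies 2337 bases from the annotated start of LIPI, 342 from CCK, 3118 from CER1 and 8212 from SPHKAP. It lies 1368 bases from the start of NR0B1, 1758 from CAV1, 4691 from FCGRT and 6132 from SLC43A1. Uninterrupted runs held 11, 11, 13 and 16 units in the first set and 11, 8, 12 and 13 units in the second, so the sets overlapped in length.

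The 6 libraries held 32.9 M to 39.8 M counts, and replicates of a group correlated at a Pearson r of 0.982 to 0.990 across genes on the log scale, which describes genes and not independent samples. No replicate pair agreed within sampling noise. Among the markers of Ewing sarcoma cells, NR0B1, NKX2-2 and STEAP1 were detected in each of the 6 libraries, whereas CD99, which lies in the region shared by the X and Y chromosomes, was close to 0 throughout, with 0.0241 CPM (reads scaled to a common TMM-adjusted library size) with WT-EF. Markers of blood, epithelial, melanocyte and skeletal muscle cells summed to at most 3.74 CPM per list in any of the 6 libraries, and MYOD1, MYOG, CD3E and TYR were too low to be tested. Of 11 markers tested in these 4 lists, CD14, MLANA and DES were called higher with DAF, a share near the 22.3% of all protein-coding genes. The calls of DES and MLANA were lost without some of the single libraries. CD14 was at 2.93 CPM with DAF against 0.477 CPM with WT-EF. In bulk RNA, fewer cells of a type and less RNA per cell cannot be told apart.

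The level of the fusion transcript was read at FLI1, whose count sums reads of the cDNA and of any remaining endogenous transcript. The count does not separate these sources, so it does not measure the cDNA alone. FLI1 (chr11:128556430-128683162, GRCh37) stood at 21.9, 25.2 and 26.5 CPM in the WT-EF libraries and at 36.2, 39.8 and 35.1 CPM in the DAF libraries. The groups did not overlap, and FLI1 was 1.52-fold higher with DAF (log2 ratio 0.60, SE 0.13, adjusted p = 0.00173). Mean FLI1 was 70.3 CPM in iLuc and 20.6 CPM in iEF cells. DAF cells did not have less FLI1 transcript than WT-EF cells, and the files hold no protein measurement. The study's qRT-PCR of EWS/FLI, from technical replicates of a representative sample, called no difference of WT-EF from DAF or from iEF. The study also presents a western blot of nuclear lysates, described as showing loss of the endogenous fusion and rescue by the tagged constructs. Its text gives no quantities for that blot. EWSR1, counted over both the normal gene and the fusion part, did not pass the test, at 283 CPM with WT-EF and 261 CPM with DAF (log2 ratio -0.12, 95% confidence interval -0.31 to 0.07, here and below without adjustment for the number of genes).

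Of 30549 genes tested, 7615 differed between DAF and WT-EF, or 24.9%, at an adjusted p below 0.05 in the quasi-likelihood test of edgeR, adjusted by Benjamini-Hochberg over all genes tested. Log2 ratios are of DAF to WT-EF unless another pair is named. There were 4374 genes higher with DAF (14.3% of those tested) and 3241 lower (10.6%). Of these, 2447 were at least 2-fold higher and 1472 at least 2-fold lower, and 200 and 92 respectively moved at least 16-fold. Protein-coding genes were called more often in the higher direction, 3659 against 2309, whereas among long non-coding RNAs 428 were higher and 520 lower. The balance of the directions depends on how the libraries are scaled. The higher genes were 57.4% of calls with TMM scaling and 34.6% when scaled to library totals alone. They were 33.0% with limma on the ComBat-adjusted values, where the input values, the test and the genes tested also differ. Scaling to totals moved the median log2 difference of all genes from -0.03 to -0.25, and the values below are to be read relative to that shift.

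Fewer genes were called against cells with an empty vector for DAF than for WT-EF. With DAF, 3.41% of genes tested were higher and 4.02% lower than in iEF cells. With WT-EF, 11.4% were higher and 16.9% lower than in iEF cells. These comparisons share the iEF libraries and are given side by side only.

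The genes that respond to the endogenous fusion were defined in iLuc and iEF cells, whose libraries are separate from DAF and WT-EF. There were 3093 genes at least 2-fold higher in iLuc (fusion-activated, 10.1% of genes tested) and 4816 at least 2-fold lower (fusion-repressed, 15.8%). Of the activated genes, 1356 were lower with DAF than with WT-EF and 41 were higher, so that 43.8% were lower (95% Wilson interval 42.1 to 45.6, which covers counting only), against 10.6% of all genes. Of the repressed genes, 2537 were higher with DAF and 31 lower, so that 52.7% were higher (51.3 to 54.1), against 14.3% of all genes. The median log2 difference was -0.88 over the activated genes, 1.09 over the repressed genes and -0.08 over the 22640 genes in neither class. By replicate set, the medians were -0.69, -0.97 and -0.65 over the activated genes and 0.82, 1.09 and 0.93 over the repressed genes.

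At the 2-fold minimum that defines these classes, the 1356 activated genes made up 41.8% of the 3241 lower genes, and the 2537 repressed genes made up 58.0% of the 4374 higher genes. Most other called genes were in neither class, which also holds genes that differ between iLuc and iEF by less than 2-fold. Relative to iEF cells, the activated genes had a median log2 fold change of 1.20 with WT-EF and 0.27 with DAF, beside 2.05 for the endogenous fusion in iLuc. The repressed genes stood at -1.58 with WT-EF and -0.40 with DAF, beside -2.71 in iLuc. With DAF, both classes lay nearer to the iEF level than with WT-EF. The classes were defined against the same iEF libraries, so the medians relative to iEF are not independent of that choice.

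**Figure D1:**
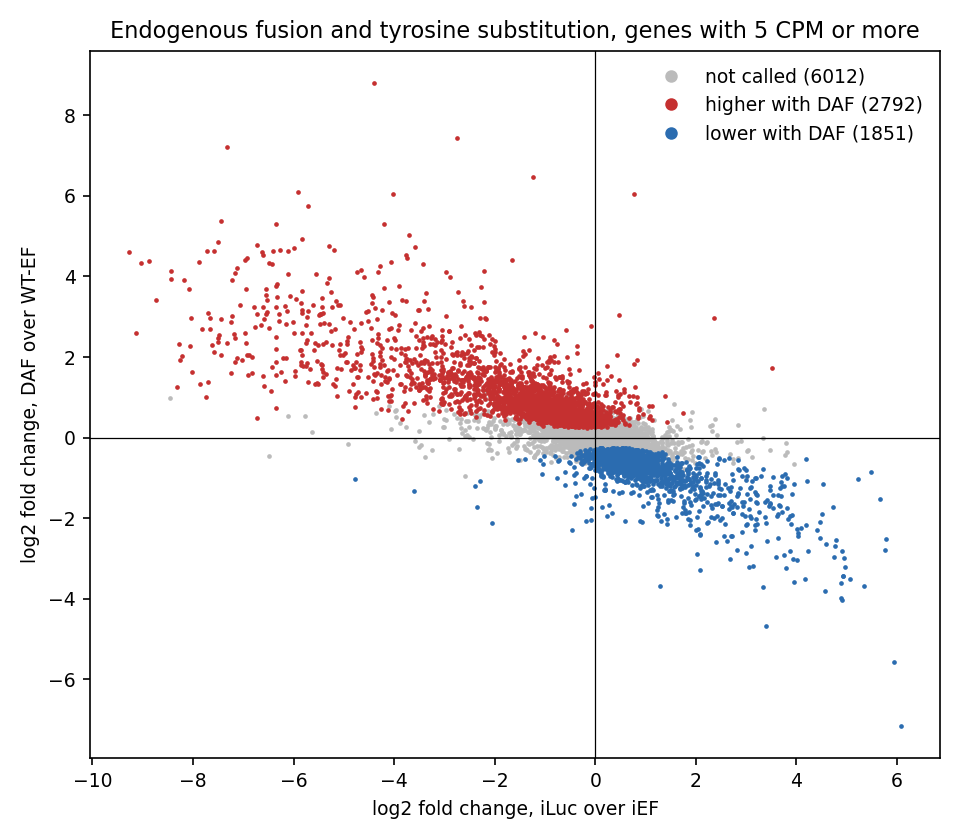
Log2 fold change of DAF over WT-EF (vertical axis) against log2 fold change of iLuc over iEF (horizontal axis) for the 10655 genes with a mean of at least 5 CPM in the DAF and WT-EF libraries, 1 point per gene. Of the 2792 genes higher with DAF, 93.7% lie to the left of 0, and of the 1851 genes lower with DAF, 94.9% lie to the right.

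Across the 10655 genes with a mean of at least 5 CPM, the difference between DAF and WT-EF followed the endogenous fusion with a Pearson r of -0.82 and a slope of -0.48. This correlation is across genes, which are not independent replicates, and is a description. The plot of the endogenous fusion against the tyrosine substitution shows the bulk of the called genes towards the upper left and lower right.

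The 12 genes with the largest decrease with DAF, among protein-coding genes at 5 CPM or more, all belonged to the fusion-activated class. Described here are 11 of them, CALCB, SPHKAP, DKK2, PROKR1, POU1F1, CER1, KCNH5, TPTE2, PCSK2, NDST4 and GRP, with log2 fold changes from -4.68 to -3.43. They were picked by this contrast, so their size is a description.

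POU1F1 (ENSG00000064835, chr3:87308554-87325734), the pituitary POU-domain transcription factor, was at 13.5, 29.4 and 23.4 CPM with WT-EF and at 1.04, 1.42 and 2.63 CPM with DAF (log2 ratio -3.68, SE 0.37, adjusted p = 3.49e-07). The iLuc mean of POU1F1 was 104 CPM, well above either rescue.

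CALCB (chr11:14926543-15103888), which encodes a calcitonin gene-related peptide, was at 42.6, 36.3 and 40.9 CPM with WT-EF and 1.69, 1.30 and 1.69 CPM with DAF. The groups were widely apart (log2 ratio -4.68, SE 0.25, adjusted p = 2.99e-10), and the iEF mean was 1.64 CPM, close to the DAF libraries. CALCB is similar in sequence to CALCA and overlaps CALCP by 115 exonic bases, so its reads are not fully its own.

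DKK2 (chr4:107842959-108204963), a secreted modulator of Wnt signalling, was at 149, 233 and 163 CPM with WT-EF and 11.2, 9.07 and 13.0 CPM with DAF (log2 ratio -3.98, SE 0.32, adjusted p = 2.30e-08). CER1, a secreted antagonist of BMP and Nodal signals, fell from a mean of 12.3 ± 0.472 to 1.01 ± 0.445 CPM (SD, n = 3). GRP, the gastrin-releasing peptide, was at 44 ± 1.54 CPM with WT-EF and 4.11 ± 1.41 CPM with DAF, and no DAF library reached the lowest WT-EF library for any of the 3 genes.

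PCSK2, a convertase that matures neuropeptides, was at 86.0, 124 and 109.8 CPM with WT-EF and at 9.77, 7.93 and 9.85 CPM with DAF (log2 ratio -3.51, SE 0.17, adjusted p = 1.30e-10). PROKR1, a prokineticin receptor gene whose exons share 1628 bases with APLF, was at 13.5 and 0.959 CPM, and the potassium channel gene KCNH5 at 21.6 and 1.78 CPM. SPHKAP, an anchoring protein for protein kinase A, was at 25.2, 49.3 and 25.1 CPM with WT-EF and 1.56, 1.93 and 2.25 CPM with DAF, and has the longest of the printed runs upstream of its start. NDST4, a heparan sulfate modifying enzyme, was at 48.0 and 4.35 CPM. TPTE2, at 16.1 and 1.40 CPM, has the close paralog TPTE, so its level is less certain.

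**Figure D2:**
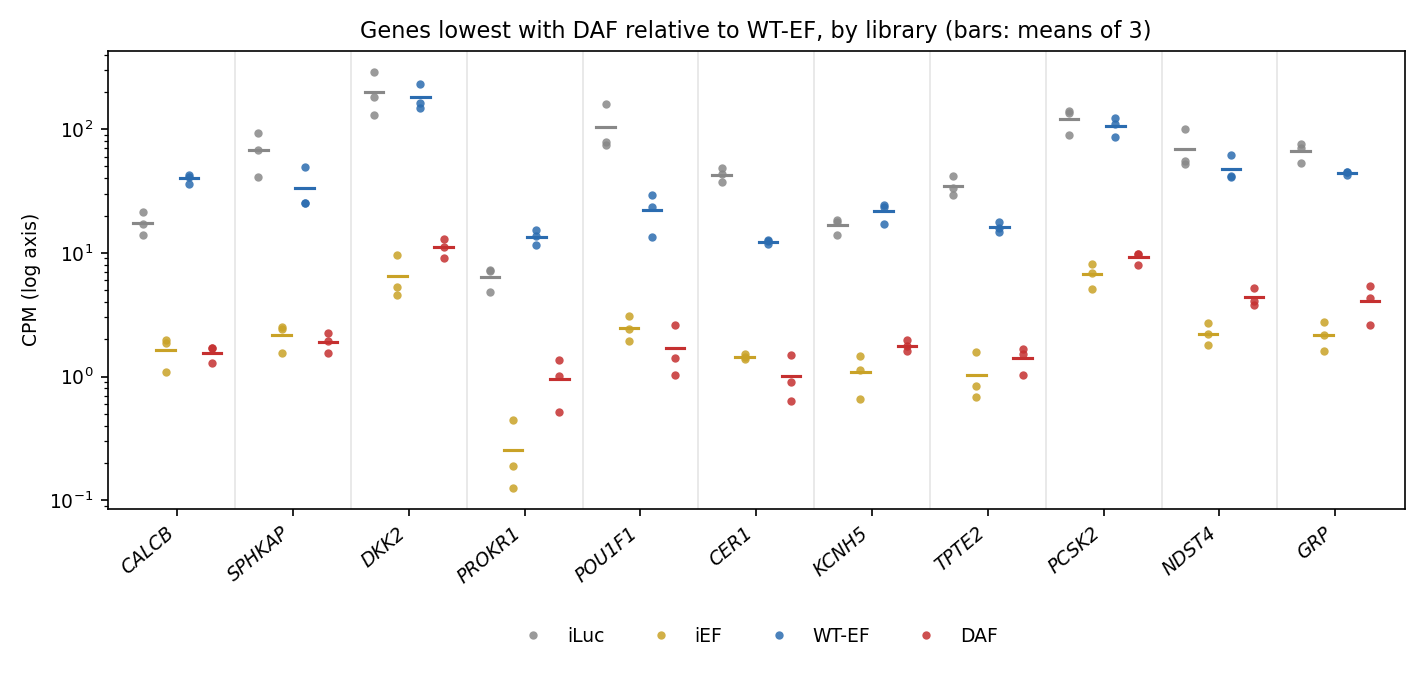
CPM on a log axis for 11 of the 12 genes lowest with DAF relative to WT-EF, 1 point per library and a bar for the mean of 3, in iLuc, iEF, WT-EF and DAF cells. In each gene the 3 DAF points lie below the 3 WT-EF points. The DAF points lie near the iEF points for CALCB, at 1.56 CPM with DAF and 1.64 CPM in iEF.

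Known fusion-activated genes were followed as a list of 33, all of which were tested. With DAF 24 were lower (14.1% over all protein-coding genes), 0 were higher and 9 did not pass the test. The median log2 fold change was -0.84, beside -0.03 over all genes. Without each library in turn, 19 to 22 of the 33 were lower and at most 1 was higher. The list was drawn up from the Ewing sarcoma field with earlier results of these data known.

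Beyond CALCB and DKK2, the lower genes of largest change were XG, PPP1R1A and LIPI. XG, a surface antigen gene, was at 9.37 CPM with WT-EF and 0.992 CPM with DAF (log2 ratio -3.21, SE 0.24, adjusted p = 7.78e-09). PPP1R1A, an inhibitor of protein phosphatase 1, was at 4.64, 6.00 and 4.62 CPM with WT-EF and 0.218, 0.754 and 0.719 CPM with DAF (log2 ratio -3.20, SE 0.37, adjusted p = 1.83e-06). LIPI, a lipase-family gene and a known Ewing sarcoma antigen, was at 93.9, 125 and 107 CPM with WT-EF and 12.3, 13.0 and 16.1 CPM with DAF (log2 ratio -2.96, SE 0.19, adjusted p = 2.59e-09). The groups were apart in all 3 genes. CCK, the cholecystokinin gene, was at 2.74, 3.58 and 6.29 CPM with WT-EF and 1.12, 1.48 and 1.16 CPM with DAF (log2 ratio -1.62, adjusted p = 0.00857), and it did not pass without DAF replicate 3.

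Several transcription factor genes of the list were called lower, and others, NR0B1 and SOX6, were not. FEZF1, a forebrain zinc finger factor, was at 18.5 and 4.22 CPM (log2 ratio -2.15, adjusted p = 2.36e-07). GLI1, the Hedgehog effector, was at 2.39 CPM with WT-EF and 0.463 with DAF (log2 ratio -2.39, adjusted p = 2.12e-05). NKX2-2, a homeodomain repressor, was at 3.61 and 1.90 CPM (log2 ratio -0.92, adjusted p = 0.00963). BCL11B, a zinc finger factor, was at 103 and 41.2 CPM (log2 ratio -1.33), and SOX2, a pluripotency and neural factor, at 85.9 and 60.6 CPM (log2 ratio -0.50, adjusted p = 0.0364). NKX2-2 lost its call without DAF replicate 1 and without DAF replicate 2, and SOX2 without either of these, without WT-EF replicate 1, without WT-EF replicate 3 and with no replicate block.

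Signalling genes of the list moved by less than the top genes. The kinase gene PRKCB was at 262, 253 and 254 CPM with WT-EF and 128, 164 and 123 CPM with DAF, and its DAF libraries stayed above the iEF mean of 35.3 CPM. IGF1, the growth factor, was at 72.3, 81.9 and 70.6 CPM with WT-EF and 21.7, 24.8 and 27.6 CPM with DAF (log2 ratio -1.60, SE 0.23, adjusted p = 1.86e-05), again above the iEF mean of 4.49 CPM. The exons of IGF1 overlap HELLPAR over 6693 bases, and the strand setting of the counting is not given, so reads of the pair may be mixed. GSTM4, a glutathione transferase, was at 33.4 and 19.5 CPM (log2 ratio -0.76, adjusted p = 0.0243), with an iEF mean of 10.4 CPM. EZH2, the Polycomb methyltransferase, differed by -0.63, and CCND1, the G1 cyclin, by -0.33 on the log2 scale. Of the 6 fits that leave out 1 of these libraries, GSTM4 lost its call in 4 and CCND1 in 5.

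The 9 genes that did not pass the test included NR0B1, an orphan nuclear receptor with a long microsatellite upstream of its start. NR0B1 was at 25.6, 29.2 and 30.6 CPM with WT-EF and at 19.9, 38.0 and 24.1 CPM with DAF. The groups overlapped, with a log2 difference of -0.10 and a 95% confidence interval of -0.65 to 0.45. FCGRT, the neonatal Fc receptor, was at 38.2, 43.2 and 57.6 CPM with WT-EF and 32.4, 37.5 and 39.2 CPM with DAF, with an interval of -0.71 to 0.01, and stood at 7.92 CPM in iEF cells. CAV1, caveolin, was at 1316 and 1122 CPM, with an interval of -0.50 to 0.04, and SOX6 at 32.3 and 39.3 CPM, with an interval of -0.02 to 0.58. Scaled to library totals, CAV1 and FCGRT were called lower with DAF, so their place among these genes depends on the scaling.

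A wider search for genes held at the WT-EF level started from the 309 genes that were at least 4-fold activated by the endogenous fusion and reached 5 CPM with WT-EF. Of these, 272 were called lower with DAF and 1 higher, against 10.6% lower over all genes, but the minimum in WT-EF favours genes that are higher there, so the count is a description only. For 34, or 11%, the whole 95% confidence interval of the difference lay within 2-fold either way. The 5 with the estimate closest to 0 were NPY1R, ARHGAP20, RUBCNL, SLC43A1 and ACP3.

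NPY1R (chr4:164245114-164265984), a receptor for neuropeptide Y, was at 27.8, 24.0 and 33.6 CPM with WT-EF and 26.0, 29.8 and 29.1 CPM with DAF. The interval of the log2 difference was -0.48 to 0.47. Both rescues stood above the iEF mean of 8.92 CPM, by 1.68 on the log2 scale with WT-EF (adjusted p = 1.29e-05) and 1.68 with DAF (adjusted p = 1.21e-04), and below the iLuc mean of 91.1 CPM. NPY1R shares 528 exonic bases with NPY5R, so some reads could not be assigned between them.

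ACP3, prostatic acid phosphatase, was at 11, 12.6 and 9.33 CPM with WT-EF and 11, 12.1 and 7.94 CPM with DAF, both above the iEF mean of 3.74 CPM. RUBCNL, a regulator of autophagy, was at 5.40 and 5.09 CPM, against 2.85 CPM in iEF cells. For the GTPase regulator ARHGAP20 and the amino acid transporter SLC43A1, WT-EF itself was close to iEF. ARHGAP20 had 5.56 CPM with WT-EF and 4.24 in iEF cells, and SLC43A1 6.81 and 5.01 CPM, so equal values with DAF say little for these 2 genes.

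The printed microsatellites belong to a wider count of GGAA runs. Runs of at least 8 consecutive GGAA units, on either strand of GRCh37, lay within 5 kb of the annotated start of 188 of the 16417 protein-coding genes tested, or 1.15%. The share was 1.91% for the 2309 genes lower with DAF and 1.18% for the 3659 genes higher with DAF. Among genes at least 4-fold lower with DAF it was 17 of 246, or 6.91%, against 10 of 752, or 1.33%, among genes at least 4-fold higher.

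Of 868 protein-coding activated genes lower with DAF, 34 had such a run within 5 kb, or 3.92%, and of 834 that were not called, 25 did, or 3.00%. Of 404 activated genes whose interval lay within 2-fold either way, 9 did, or 2.23%. The activated genes with a run within 5 kb had a median log2 difference of -1.04 (62 genes), those with a run between 5 and 50 kb -0.88 (338 genes) and the others -0.74 (1337 genes). Their median activation by the endogenous fusion was 3.37, 2.19 and 1.82 on the log2 scale in the same order. A run in the reference sequence is not evidence of binding, and these shares carry no test.

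The HOXD cluster holds homeobox genes that pattern the body axis and limb. With DAF 7 of 9 were lower and 1 was higher, beside 14.1% and 22.3% of all protein-coding genes, with a median of -1.29. HOXD13 was at 40.2, 43.5 and 35.6 CPM with WT-EF and 16.6, 18.2 and 14.8 CPM with DAF (log2 ratio -1.27, SE 0.12, adjusted p = 1.21e-07). HOXD4 differed by -1.70, HOXD9 by -1.45 and HOXD3 by -1.40 on the log2 scale. HOXD1, below 1 CPM in all 6 libraries, was the gene higher with DAF. Of the 9 genes, 6 averaged at least 1 CPM. HOXD10 and HOXD11 share 452 exonic bases, so their reads are not fully separable.

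Of 27 neural and developmental transcription factors tested out of 32, 12 were lower with DAF and 2 higher. Over all protein-coding genes 14.1% were lower and 22.3% higher, and the median of the list was -0.56. Of the 27, 16 averaged at least 1 CPM over the 6 libraries, and the ratios of the others rest on few reads. POU3F1, a POU factor of neural and Schwann cell development, was at 33.3, 35.4 and 36.5 CPM with WT-EF and 5.24, 4.49 and 6.38 CPM with DAF (log2 ratio -2.70, SE 0.19). EBF3, a neuronal differentiation factor, was at 123 and 27.5 CPM, SOX1 at 10.1 and 1.62 CPM, and OTX2, a forebrain and eye factor, at 64.5 and 23.4 CPM. EBF1, a factor of B cell and adipocyte development, was higher, at 11 and 18.8 CPM (log2 ratio 0.80, adjusted p = 0.00428). PAX7, a factor of muscle stem cells and neural crest, did not pass the test, at 13.4, 13.7 and 10.1 CPM with WT-EF and 8.54, 12.4 and 12.3 CPM with DAF, and both means lay above the iEF mean of 4.62 CPM.

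Of 32 synaptic vesicle and neurosecretory genes, 6 were lower (18.8%) and 5 higher (15.6%) with DAF, with a median of -0.15. Over all protein-coding genes the shares were 14.1% lower and 22.3% higher. Of the 32, 22 averaged at least 1 CPM over the 6 libraries. CHGA, a secretory granule protein, was at 2.23, 3.60 and 5.82 CPM with WT-EF and 0.218, 0.181 and 0.407 CPM with DAF (log2 ratio -3.80, adjusted p = 6.49e-07), and PCSK2 was among the lower genes as above. SCG5, a chaperone of PCSK2, was higher, at 0.783 CPM with WT-EF and 3.83 CPM with DAF (log2 ratio 2.33, adjusted p = 4.37e-04), and UNC13A, which primes vesicles for release, was at 10.1 and 31.5 CPM (log2 ratio 1.65, adjusted p = 7.09e-04).

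The 12 genes with the largest increase with DAF were CXCL9, IDO1, TNFSF10, MMP9, APOL3, SERPINB4, NNMT, CCL2, VCAM1, GBP4, CXCL10 and GBP5, with log2 fold changes from 4.93 to 8.81. All but MMP9 belonged to the fusion-repressed class. They too were picked by this contrast.

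CXCL9 (chr4:76922428-76928662), an interferon-induced chemokine, had 2, 1 and 1 reads in the WT-EF libraries and 301, 1028 and 385 reads in the DAF libraries. The ratio of the summed reads, scaled by library, was 520.5 with an exact counting interval of 203 to 1912, which covers counting error only. In CPM the DAF libraries were at 8.21, 31.0 and 12 CPM, so replicate 2 was the highest, and the iEF mean was 0.811 CPM. IDO1, the tryptophan-degrading enzyme induced by interferon, had 9 reads in all with WT-EF and 1321 with DAF, a ratio of 178 with a counting interval of 93.6 to 391.

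TNFSF10, the death ligand TRAIL, was at 0.0961, 0.194 and 0.0246 CPM with WT-EF and 9.44, 26.2 and 11.2 CPM with DAF (log2 ratio 7.22, SE 0.73, adjusted p = 3.29e-07). CCL2, a monocyte chemokine, was at 14.8, 18.6 and 8.28 CPM with WT-EF and 384, 884 and 499 CPM with DAF (log2 ratio 5.39, SE 0.54, adjusted p = 2.94e-07), beside 424 CPM in iEF and 2.22 CPM in iLuc cells. VCAM1, a leukocyte adhesion molecule, was at 1.35, 6.10 and 1.06 CPM with WT-EF and 40.2, 199 and 77.1 CPM with DAF, the largest standard error among the 12 (log2 ratio 5.29, SE 1.00, adjusted p = 4.47e-04). In each of the 12 genes the groups did not overlap.

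MMP9, a matrix-degrading protease, was at 1.42, 1.45 and 0.982 CPM with WT-EF and 55.5, 248 and 85.5 CPM with DAF (log2 ratio 6.48, SE 0.62, adjusted p = 1.76e-07). Its mean was 6.86 CPM in iEF cells and 2.95 CPM in iLuc cells, and every DAF library stood above both means. Relative to iEF, MMP9 was higher with DAF by 4.02 on the log2 scale (adjusted p = 6.13e-05) and differed with WT-EF by -2.46 (adjusted p = 0.00234). CXCL9, at 4.45 (adjusted p = 1.85e-05), and IDO1, at 2.53 (adjusted p = 7.20e-04), were likewise higher with DAF than in iEF cells. The mean with DAF exceeded the iEF mean for 11 of the 12 genes, VCAM1 being the exception, at 448 CPM in iEF cells.

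APOL3, an apolipoprotein L, was at 1.42 CPM with WT-EF and 98.7 CPM with DAF, and NNMT, nicotinamide N-methyltransferase, at 1.30 and 69.6 CPM. The guanylate-binding GTPases GBP4 and GBP5 were at 0.622 and 0.381 CPM with WT-EF and at 23.9 and 12.2 CPM with DAF. CXCL10, a chemokine like CXCL9, was at 1.43 and 48.6 CPM. SERPINB4, a serine protease inhibitor, was at 0.154 and 10.6 CPM, and is nearly identical to SERPINB3, so its reads are uncertain.

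**Figure D3:**
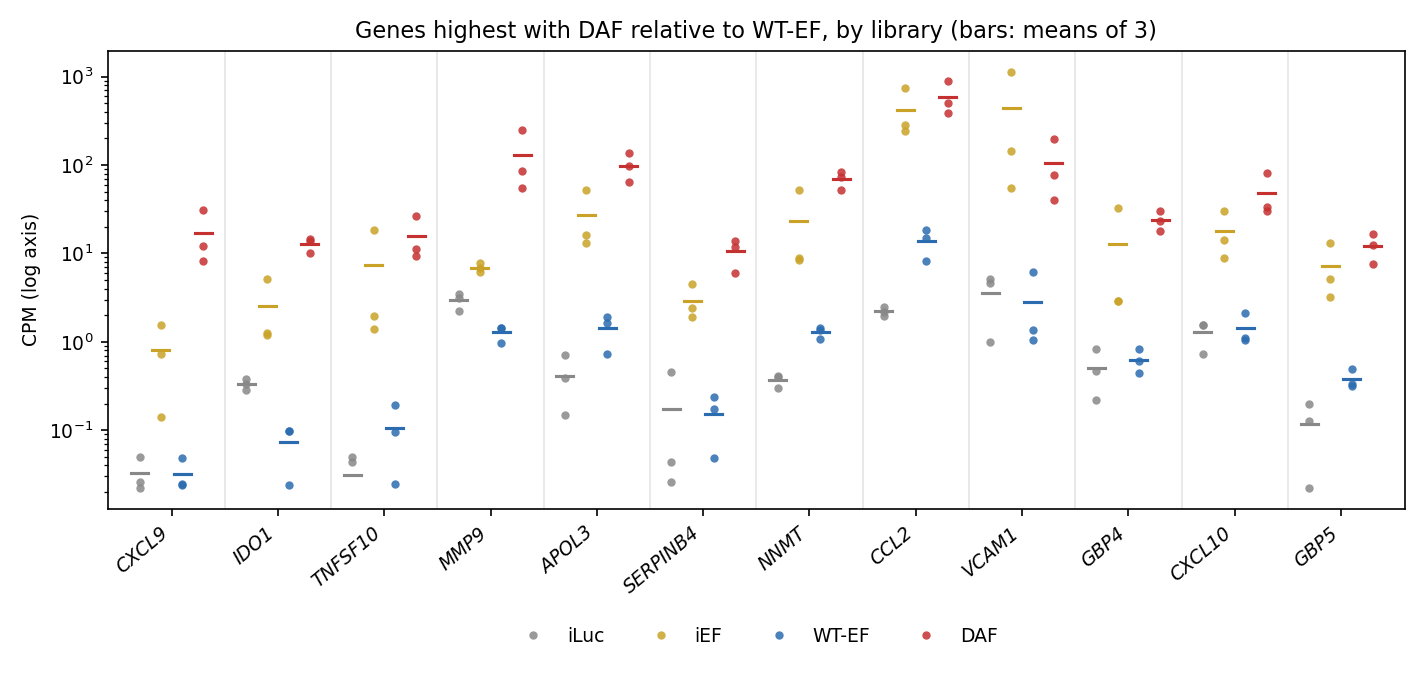
CPM on a log axis for the 12 genes highest with DAF relative to WT-EF, 1 point per library and a bar for the mean of 3, in iLuc, iEF, WT-EF and DAF cells; a library with no TNFSF10 read in iLuc is not drawn. In each gene the 3 DAF points lie above the 3 WT-EF points, as for MMP9 at 129.6 CPM with DAF and 1.28 CPM with WT-EF.

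Inflammatory cytokines and chemokines were higher with DAF in 24 of 26 genes tested (22.3% over all protein-coding genes) and lower in 0. Their median was 2.89. CCL7, a monocyte chemokine like CCL2, had 4 reads in all with WT-EF and 234 with DAF, a ratio of 71.1 with a counting interval of 27.4 to 263. IL1B, a central cytokine, was at 9.37, 10.3 and 9.80 CPM with WT-EF and 97.9, 488 and 205 CPM with DAF (log2 ratio 4.66, SE 0.54, adjusted p = 1.77e-06). LIF, a cytokine of the IL-6 family, was at 8.02, 6.87 and 5.38 CPM with WT-EF and 117, 196 and 102 CPM with DAF. CXCL8, a neutrophil chemokine, was at 172 and 1675 CPM, and IL6 at 0.420 and 3.07 CPM. DAF replicate 2 was the highest of the 3 DAF libraries for 22 of the 26 genes. Without it 21 genes were higher and the median was 2.50, and without any 1 library 19 to 22 genes were higher.

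Interferon-stimulated genes were higher with DAF in 21 of 24 (22.3% over all protein-coding genes), with 0 lower and a median of 2.08. OAS2, an antiviral enzyme, was at 1.06, 3.22 and 1.30 CPM with WT-EF and 26.6, 50.7 and 77.4 CPM with DAF (log2 ratio 4.86, SE 0.59, adjusted p = 3.13e-06). MX2 was at 1.41 CPM with WT-EF and 29.4 CPM with DAF, and IFI27 at 2.84 and 53.0 CPM. MX1, an antiviral GTPase, was at 8.87 and 115 CPM and IFIT1 at 35.2 and 178 CPM. All 24 were in the fusion-repressed class. DAF replicate 3 was the highest DAF library for 17 of the 24. Without it 21 genes were called higher and the median was 1.71. The iEF mean of IFIT1 was 201 CPM.

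Of 32 extracellular matrix genes, 25 were higher (22.3% over all protein-coding genes) and 1, DCN, was lower (14.1%), with a median of 1.23. FN1, fibronectin, was at 7601, 6606 and 6409.8 CPM with WT-EF and 24112, 20294 and 17043 CPM with DAF (log2 ratio 1.56, SE 0.17, adjusted p = 6.28e-07). LOXL4, a lysyl oxidase, was at 1.12 and 11.7 CPM (log2 ratio 3.29, adjusted p = 4.43e-04). DCN, decorin, was at 0.553, 1.33 and 1.06 CPM with WT-EF and 0.191, 0.151 and 0.0938 CPM with DAF. The type VI collagen genes COL6A1, COL6A2 and COL6A3 differed by 2.98, 2.82 and 2.68 on the log2 scale. COL3A1, a fibrillar collagen, and TNC, tenascin, did not pass the test, with intervals of -0.58 to 0.71 and 0.04 to 0.72.

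Of 28 integrin, focal adhesion and contractile genes, 24 were higher with DAF (22.3% over all protein-coding genes) and 0 lower. Their median was 1.02. ITGB3, an integrin beta subunit, was at 0.889, 0.363 and 0.712 CPM with WT-EF and 13.4, 16.3 and 12.2 CPM with DAF (log2 ratio 4.40, SE 0.30). ITGA2, a collagen-binding integrin subunit, was at 7.34 and 59.9 CPM, and MYL9, a myosin light chain of contractile cells, at 0.154 and 1.24 CPM. ITGA3, a laminin-binding integrin subunit, was at 36.5 and 281 CPM. The tropomyosin gene TPM1 was at 108 and 457 CPM. The exons of TPM1 and ITGB3 each share over 2000 bases with another annotated gene.

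Of 19 TGF-beta pathway and YAP target genes, 16 were higher with DAF (22.3% over all protein-coding genes) and 0 lower. Their median was 1.64. ANKRD1, a YAP target, was at 24.4, 16.0 and 46.4 CPM with WT-EF and 427, 496 and 466 CPM with DAF (log2 ratio 4.05, SE 0.36, adjusted p = 6.58e-08). INHBA, an activin subunit gene, was at 7.26 and 53.6 CPM, and the ligand gene TGFB2 at 11.7 and 76.2 CPM.

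Of 10 known fusion-repressed genes, 8 were higher with DAF (22.3% over all protein-coding genes) and 0 lower, with a median of 1.74. THBS1, thrombospondin, was at 5.55, 4.86 and 6.14 CPM with WT-EF and 134, 132 and 148 CPM with DAF, with little spread in either group (log2 ratio 4.64, SE 0.16, adjusted p = 1.15e-13). IGFBP3, which binds insulin-like growth factors, was at 532, 259 and 267 CPM with WT-EF and 5519, 4506 and 3566 CPM with DAF, beside 4539 CPM in iEF and 16.9 CPM in iLuc cells. LOX, lysyl oxidase, and TGFBR2, a TGF-beta receptor, differed by 1.97 and 1.59 on the log2 scale.

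Of 15 mesenchymal transcription factors, 10 were higher (22.3% over all protein-coding genes) and 1, TWIST1, was lower (14.1%), with a median of 1.60. ZEB1 was at 10.2 and 61.9 CPM and RUNX1 at 3.66 and 17.3 CPM. SNAI2 and ZEB2 did not pass the test, with intervals of -0.42 to 0.85 and -0.30 to 0.23.

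Of 22 endothelial-type ETS target genes tested, 10 were higher with DAF (22.3% over all protein-coding genes) and 1 lower (14.1%). Their median was 1.05, and 13 of the 22 averaged at least 1 CPM over the 6 libraries. TIE1, an endothelial receptor kinase, was at 0.432, 0.218 and 0.491 CPM with WT-EF and 8.57, 10.5 and 8.76 CPM with DAF. CXCR4, a chemokine receptor, was at 3.36, 4.21 and 4.89 CPM with WT-EF and 22.6, 70.6 and 48.1 CPM with DAF, beside 4.40 CPM in iEF and 0.783 CPM in iLuc cells. CD93, a surface glycoprotein of endothelial cells, was at 0.688 CPM with WT-EF, 16.0 with DAF and 1.86 in iEF cells. Relative to iEF, CXCR4 was higher with DAF by 3.21 (adjusted p = 3.44e-05) and CD93 by 3.09 (adjusted p = 4.69e-05) on the log2 scale. The defining endothelial genes CDH5, VWF and TEK stayed below 1.1 CPM in all 6 libraries.

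In the IGF axis, 8 of 12 genes were higher with DAF (22.3% over all protein-coding genes) and 1, IRS2, was lower (14.1%). The median was 0.66. The ligand gene IGF1, lower with DAF as above, and IGFBP3, higher, are counted in other lists and not here. IGFBP1 was at 0.355 and 5.84 CPM and IGFBP7 at 6.63 and 51.7 CPM. IGFBP5 was at 527, 329 and 299 CPM with WT-EF and 2333, 1851 and 1929.8 CPM with DAF, beside 339 CPM in iEF cells. It too stood above iEF, by 2.59 on the log2 scale (adjusted p = 1.21e-06). The receptor gene IGF1R differed by 0.43 (adjusted p = 0.0143; not called under library totals or without DAF replicate 1, WT-EF replicate 1 or WT-EF replicate 3), and the adaptor gene IRS2 was at 161 and 59.2 CPM.

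Of 33 DNA replication and mitosis genes, 15 were lower with DAF (14.1% over all protein-coding genes) and 0 higher, with a median of -0.47. All 33 averaged at least 1 CPM over the 6 libraries. Well-expressed genes were called more often, with 1851 lower and 2792 higher among the 10655 at 5 CPM or more. E2F2, an S-phase transcription factor, was at 33.3, 41.0 and 39.9 CPM with WT-EF and 9.66, 6.90 and 11.8 CPM with DAF (log2 ratio -2.02, SE 0.27, adjusted p = 7.90e-06). The helicase subunit gene MCM6 was at 102 and 52.8 CPM and GINS2, of the same complex, at 34.5 and 17.2 CPM. The proliferation marker MKI67 did not pass the test, with an interval of -0.66 to 0.20. DAF replicate 2 was the highest DAF library for 0 of the 33 genes. The count of lower genes was 6 without DAF replicate 2 and 7 without WT-EF replicate 2, was 28 when scaled to library totals alone.

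Of 20 ETS family factors, 5 were higher with DAF and 3 lower, near the 22.3% and 14.1% of all protein-coding genes, with a median of 0.15, which became -0.07 when scaled to library totals. ETS1 was at 54.5 and 199 CPM (log2 ratio 1.88), EHF, an epithelial ETS factor, at 0.307 and 1.87 CPM, and FEV, at 1.27 and 0.178 CPM, was lower (log2 ratio -2.77).

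**Figure D4:**
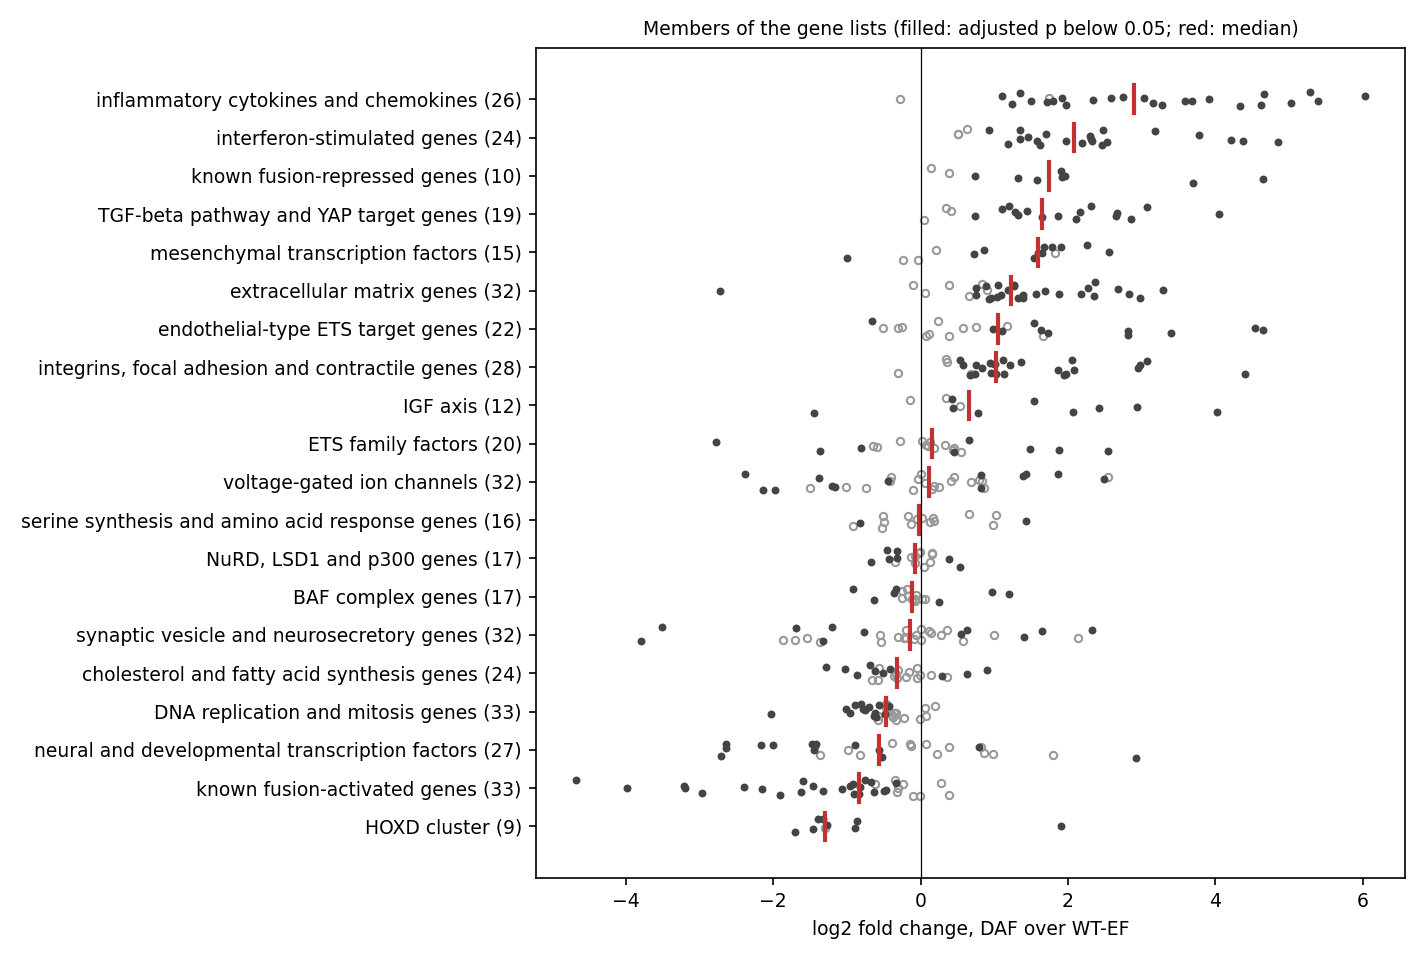
Log2 fold change of DAF over WT-EF (horizontal axis) for the tested members of 20 gene lists, 1 point per gene, filled where the adjusted p was below 0.05, with a red bar at the list's median. The inflammatory list has the highest median, 2.89, and the HOXD cluster the lowest, -1.29.

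Tyrosine substitution in the shortened domain was measured by DAF-mut9 against mut9. It changes the repeat tyrosines that mut9 keeps, including those of the stretch SYGQ1, so its extent is not that of DAF. The comparison was made in libraries that the full-length comparison does not use. Here 5.15% of genes tested were higher with DAF-mut9 and 4.68% lower. Of the 3241 genes lower with DAF, 921 were also lower with DAF-mut9, which is 28.4% of the first list and 64.4% of the second, and 5 were higher. Of the 4374 genes higher with DAF, 1319 were higher with DAF-mut9, or 30.2% of the first list and 83.9% of the second, and 43 were lower.

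Of the 12 genes lowest with DAF, 11 were called lower with DAF-mut9 than with mut9. DKK2 differed by -3.51 there and KCNH5 by -3.94 on the log2 scale, beside -3.98 and -3.58 in the full-length domain. POU1F1 did not pass the test in the shortened domain, at 4.75 CPM with mut9 and 2.56 CPM with DAF-mut9.

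Of the 12 genes highest with DAF, 4 were called higher with DAF-mut9 and 1, MMP9, was lower. MMP9 was at 43.4, 25.3 and 44.7 CPM with mut9 and 3.60, 8.97 and 7.81 CPM with DAF-mut9. CCL2 was already high with mut9, at 420.4, 86.0 and 222 CPM, and stood at 198, 367 and 375 CPM with DAF-mut9. Over the inflammatory list, 3 of 26 genes were higher and 1 lower in the shortened domain, with a median of 0.37, beside 24 higher in the full-length domain. Over the interferon-stimulated list, 15 of 24 were higher with DAF-mut9, with a median of 0.97.

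Several genes with no called difference between DAF and WT-EF were lower with DAF-mut9 than with mut9. NPY1R was at 56.4, 67.6 and 35.4 CPM with mut9 and 9.89, 11.5 and 12.4 CPM with DAF-mut9 (log2 ratio -2.27, SE 0.24, adjusted p = 1.54e-06). In edgeR's quasi-likelihood fit, NPY1R had an interaction between substitution and domain of -2.26 on the log2 scale (adjusted p = 3.03e-04). It was picked for a difference near 0 in the full-length domain, which is 1 arm of the interaction. Of the 5 genes picked so, 3 were called lower with DAF-mut9 and 1 had a called interaction. NR0B1, at 46.5 and 7.65 CPM, and FCGRT, at 63.3 and 10.3 CPM, had interactions of -2.52 (adjusted p = 5.18e-04) and -2.25 (adjusted p = 1.86e-05). Both were named among genes with no called difference in the full-length domain, so these values are not independent of that choice. For IGF1 the decrease was larger in the shortened domain, with an interaction of -2.91 (adjusted p = 2.08e-05). For CAV1 the interaction was -0.06 (adjusted p = 0.938), with a log2 fold change of -0.29 in the shortened domain. DAF-mut9 differs from DAF in length as well as in which tyrosines are substituted, and these cannot be told apart.

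**Figure D5:**
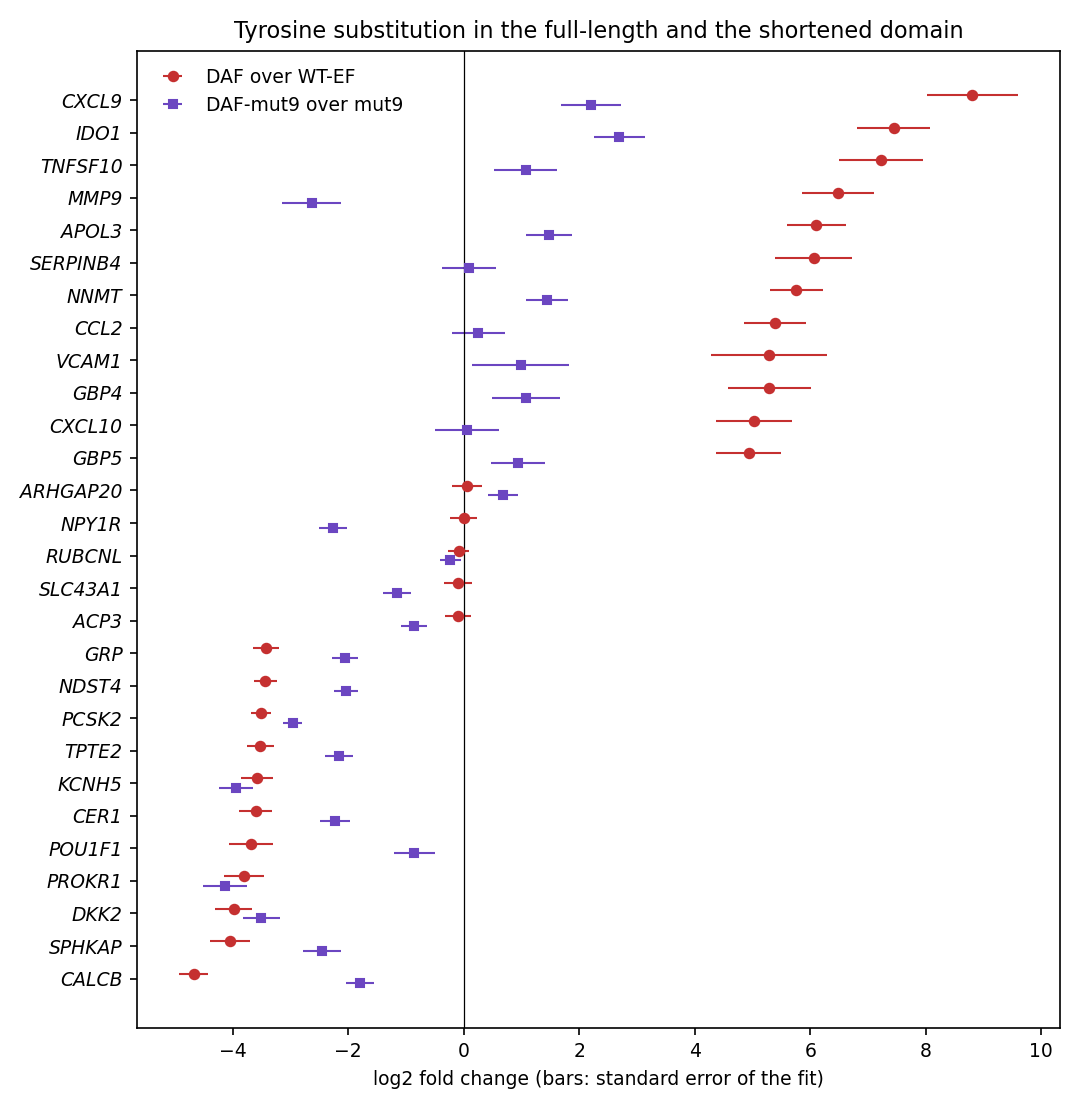
Log2 fold change for DAF over WT-EF (circles) and DAF-mut9 over mut9 (squares) for 28 of the 29 genes chosen by rule, with bars for the standard error of the fit. NPY1R lies at -0.00368 in the full-length domain and -2.27 in the shortened one, and MMP9 at 6.48 and -2.63.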

How the data were processed

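RNA from A673 cells was sequenced in 21 libraries, 3 for each of 7 groups. The authors aligned reads with STAR to hg19 (2.5.1b in the submitters' processing notes, another version in the methods) and counted reads per gene with HTSeq, and the deposited counts were used as given. Annotation release and strand setting are not given in the sources used here. A deposited signal table, made by the authors by adjusting these counts for the replicate set with ComBat, entered 1 alternative, and a table of the authors' own DESeq2 fold changes and p-values was not used. Groups came from the sample labels. The main test was edgeR 4.0.16 (limma 3.58.1, R 4.3.3), a quasi-likelihood F test with TMM scaling and the replicate set as a block, fitted to all libraries over 30549 genes with a mean of at least 1 count. Calls had a Benjamini-Hochberg adjusted p below 0.05. The block follows the study's own adjustment. CPM uses the scaled library sizes. DESeq2 1.42.0 and other alternatives are given in the closing section. The fit was tested on simulated data. Coordinates and GGAA runs came from GRCh37.

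Named genes were FLI1 and EWSR1, the 12 protein-coding genes of largest change in each direction at 5 CPM or more with 1 direction in all replicate sets, 5 fusion-activated genes with the difference nearest to 0, and list members, largest called changes first. Some genes that meet these rules are not reported here. Other list members were picked after their values were seen. All members, lists and tests were chosen with earlier results of these data known. Counting error is covered by the intervals on read ratios, and replicate spread by the fit.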

Additional observations from a re-analysis of the deposited data

Results flagged for a closer look

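For 17 of the 29 genes chosen by rule, the difference made by tyrosine substitution was not the same in the full-length and the shortened domain, by the interaction term of edgeR's quasi-likelihood fit (DAF-mut9 minus mut9, less DAF minus WT-EF, in log2). Among the genes lowest with DAF, the decrease was smaller in the shortened domain for CALCB (2.89, adjusted p = 3.37e-05), POU1F1 (2.82, adjusted p = 0.00247), TPTE2 (1.36, adjusted p = 0.0226), NDST4 (1.39, adjusted p = 0.00538) and GRP (1.37, adjusted p = 0.0115). Genes highest with DAF had interactions of -6.61 for CXCL9 (adjusted p = 6.09e-04), -4.75 for IDO1 (adjusted p = 0.00166) and -6.15 for TNFSF10 (adjusted p = 5.23e-04). They were -4.63 for APOL3 (adjusted p = 1.12e-04), -5.96 for SERPINB4 (adjusted p = 1.81e-04), -4.31 for NNMT (adjusted p = 9.66e-05) and -5.13 for CCL2 (adjusted p = 1.02e-04). GBP4 stood at -4.21 (adjusted p = 0.0101), CXCL10 at -4.96 (adjusted p = 0.00146) and GBP5 at -3.99 (adjusted p = 0.00251).

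MMP9 had the largest interaction of the 17, -9.11 (adjusted p = 1.68e-06), being higher with DAF and lower with DAF-mut9. NPY1R had an interaction of -2.26 (adjusted p = 3.03e-04), with no called difference in the full-length domain. All 29 genes, NPY1R included, were picked on their value in DAF against WT-EF, which is 1 arm of the interaction, so neither the count nor the sizes are independent of that choice. The share of all genes tested that pass this term is not given here, so the 17 describe the chosen genes only.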

How the results depend on the processing

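Counts of called genes for DAF against WT-EF (7615) were 3919 with a 2-fold minimum, 5517 to 6650 without any 1 library, 6914 with no replicate block and 7898 with DESeq2. They were 8719 in a fit of the compared groups alone, 9116 with library totals and 9179 with limma on ComBat values. For iLuc against iEF the count (12560) was 7909 with a 2-fold minimum and 12121 with no replicate block. It was 8768 in a fit of the compared groups alone and 13276 with library totals. For DAF-mut9 against mut9 the count was 1723 with a 2-fold minimum and 4848 in a fit of the compared groups alone. Without any 1 library it was 1754 to 2550, and with no replicate block 2464. The share of fusion-activated genes lower with DAF (43.8%) was 32.3 with a 2-fold minimum, 47.2 with DESeq2, 41.4 with no replicate block, 47.8 without a low-count filter, 51.4 with filterByExpr, 55.5 in a fit of the compared groups, 54.9 with limma on ComBat values, 51.5 with library totals (added after seeing the data) and 32.6 to 48.2 without any 1 library. The share of repressed genes higher (52.7%) was in the same order 41.2, 56.4, 49.8, 57.5, 63.6 and 65.7, with 47.9 for library totals and 43.3 to 56.9 without any 1 library. The cause of these moves was not tested. For 132 genes chosen by rule or named in the text, 1750 of 1811 gene and setting pairs other than the 2-fold minimum kept their side of the threshold, 52 lost the call and 9 gained it. No value called in either fit changed sign, while some uncalled values near 0, such as that of NPY1R, did.

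Same-numbered DAF and WT-EF libraries correlated in their deviations from the group means at 0.379, 0.258 and 0.058 across genes. Pairs of different number ranged from -0.45 (DAF 1 with WT-EF 2) to 0.212 (DAF 3 with WT-EF 2). The latter pair and DAF 1 with WT-EF 3, at 0.158, lay above the same-numbered pair of set 3. The number marks the replicate set that the study adjusted for as a batch, and the block follows that. Among the genes named, SOX2, CCND1, IGF1R, DES and ALDH1L2 lost their call with no replicate block.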

Other observations

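Among all protein-coding genes tested, 22.3% were higher with DAF and 14.1% lower. Well-expressed genes were called more often, 43.6% in either direction at 5 CPM or more against 24.9% of all genes tested. Of 24 cholesterol and fatty acid synthesis genes tested, 7 were lower with DAF and 3 higher, with a median log2 fold change of -0.32. HMGCS1, which makes the precursor of mevalonate, was at 117, 148 and 122 CPM with WT-EF and 62.4, 48.1 and 47.7 CPM with DAF (log2 ratio -1.28, adjusted p = 0.00308 by edgeR's quasi-likelihood test). INSIG1, which restrains the pathway, differed by 0.90. Of 16 serine synthesis and amino acid response genes, 1 was higher, ALDH1L2 at 1.43, and 1 lower, PHGDH at -0.82, with a median of -0.01. ALDH1L2 and PHGDH each lost the call without several single libraries, and INSIG1 without DAF replicate 1 or WT-EF replicate 3.

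Of 17 BAF chromatin remodelling genes, 3 were higher and 4 lower, with a median of -0.12. DPF3 and DPF1, alternative subunits, differed by 1.20 and 0.97, and SMARCC1, a core subunit, by -0.91 (adjusted p = 7.47e-06). Of 17 NuRD, LSD1 and p300 genes, 2 were higher and 5 lower, with a median of -0.07; CHD3 differed by -0.67 and MBD2 by 0.54. Of 32 voltage-gated ion channel genes, 6 were higher and 7 lower, with a median of 0.11 that became -0.11 when scaled to library totals. Of the 32, 15 averaged at least 1 CPM over the DAF and WT-EF libraries. KCNH1, a potassium channel, was at 0.673, 0.484 and 1.08 CPM with WT-EF and 3.25, 4.10 and 5.16 CPM with DAF (log2 ratio 2.49, adjusted p = 1.91e-06), and KCNE3, a channel accessory subunit, differed by -2.14.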
